A study of Mus musculus with 18 samples.

Results

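The proteasome is the protease that degrades most ubiquitin-tagged proteins. Its genes were read here on Affymetrix arrays of sorted mouse CD4+ T cells: regulatory T cells (Treg, the Foxp3-positive cells that restrain immune responses) and Foxp3-negative CD4+ cells (labelled Teff). Members were all probe sets named Psma, Psmb, Psmc, Psmd or Psme followed by a digit. The table of 10 arrays held 91 of them among 45101 probe sets, for 44 gene names, and the table of 8 arrays held 75 among 22690, for 43 names. Psmc3ip is not a proteasome subunit: it encodes a partner of meiotic recombinases. That left 43 and 42 subunit genes, counting the 3 assembly chaperones Psmd5, Psmd9 and Psmd10. Of the members, 75 of 91 and 60 of 75 probe sets lay above the median level of their table. Psma8, an alpha subunit of the testis, read 2.53 to 2.81 in log2 units on the 10 arrays and 3.13 to 3.36 on the 8. Psmb11, the beta subunit of the thymus cortex, is only on the larger array and read 2.76 to 3.39. Both lay below the table's median level, which left 41 subunit genes above it in each table.

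The 10 arrays hold 5 aTreg and 5 Teff samples, Foxp3-positive and Foxp3-negative CD4+ cells of Foxp3DTR mice given DT, taken from spleen and lymph nodes. In such mice the diphtheria toxin receptor is expressed from the Foxp3 locus, so toxin removes Foxp3-expressing cells, and both groups come from treated animals. The 8 arrays hold 2 samples each of B16_Treg, B16_Teff, Spl_Treg and Spl_Teff, Foxp3-positive and Foxp3-negative CD4+ cells of Foxp3GFP mice, in which green fluorescent protein marks Foxp3 expression. The B16 groups were sorted from tumours (B16 is a mouse melanoma line) and the Spl groups from spleen and lymph nodes, of mice whose tumour status the labels do not give. All mice were 6 to 8 weeks old, and CD4 cells were positively selected with beads before the sort. The titles number the replicates, but nothing in the labels says whether they came from separate mice, so p-values measure only the spread between these samples. Values are log2 expression after RMA, and the 2 tables were made separately, so they are compared below only through differences within each table.

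The label check gave a mixed result. The Foxp3 probe set read 3.11 to 3.43 on the aTreg arrays and 2.97 to 3.40 on the Teff arrays, and 3.20 and 3.30 on the B16_Treg arrays against 3.13 and 3.18 on the B16_Teff arrays. It read 9.95 and 9.99 on the Spl_Treg arrays against 3.05 and 3.19 on the Spl_Teff arrays. Il2ra and Ctla4, both high in Treg cells, followed the labels in all 3 comparisons, with differences of 4.04, 4.25 and 4.64 for Il2ra and of 3.08, 2.03 and 2.23 for Ctla4 (aTreg minus Teff, B16_Treg minus B16_Teff and Spl_Treg minus Spl_Teff). So the 7 Treg arrays of the DT-treated and B16 groups go against their label at Foxp3 alone, and Treg below means arrays labelled Treg. Array 4 of aTreg and arrays 4 and 5 of Teff correlated less with their own group (mean r 0.981, 0.972 and 0.977) than the other 7 of that table (0.986 to 0.992). Other cells also left a signal: the summed level of 11 macrophage and dendritic cell markers (log2) was 9.54 and 10.1 on the B16_Treg arrays, against 12.6 and 13.5 on the B16_Teff arrays.

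As background, the core particle is a stack of alpha and beta rings, and 3 of the beta subunits, Psmb5, Psmb6 and Psmb7, carry the cutting sites. In cells of the immune system, and wherever interferon gamma acts, Psmb8, Psmb9 and Psmb10 take their places and form the immunoproteasome, which favours peptides that fit MHC class I. A regulatory particle caps the core: its base holds the Psmc ATPases that unfold substrates, and its lid removes ubiquitin. The activators Psme1 and Psme2 (PA28) and Psme3 and Psme4 (PA28 gamma and PA200) can cap the core in its place. T cells make both core forms, and a dividing T cell degrades and makes much protein.

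In DT-treated mice all 3 pairs of exchanged subunits shifted unequally, and the promoters of 2 pairs are shown for that reason. As described below, each pair lost its call without single aTreg arrays. Psmb10 and Psmb7, the pair that shifted most, are not shown because Psmb7 was not matched in the promoter table used here. They are the 250 bases before the RefSeq gene start (build GRCm38.p6), 5′ to 3′ on the gene's strand. Capitals mark matches to the gamma-activated site TTCNNNGAA, the interferon regulatory factor pair GAAA-NN-GAAA, the antioxidant-type element TGACNNNGC that Nfe2l1 and Nfe2l2 bind, or CCAAT, each searched on both strands. Psmb8 lies at chr17:34197945-34198194, plus strand, Psmb9 at chr17:34187331-34187580, minus strand, Psmb5 at chr14:54617996-54618245, minus strand, and Psmb6 at chr11:70525107-70525356, plus strand.
Psmb8: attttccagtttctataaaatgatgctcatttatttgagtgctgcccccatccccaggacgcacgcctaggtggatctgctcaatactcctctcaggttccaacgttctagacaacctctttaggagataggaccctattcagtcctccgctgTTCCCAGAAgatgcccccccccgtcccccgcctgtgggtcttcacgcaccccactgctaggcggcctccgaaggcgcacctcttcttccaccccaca
Psmb5: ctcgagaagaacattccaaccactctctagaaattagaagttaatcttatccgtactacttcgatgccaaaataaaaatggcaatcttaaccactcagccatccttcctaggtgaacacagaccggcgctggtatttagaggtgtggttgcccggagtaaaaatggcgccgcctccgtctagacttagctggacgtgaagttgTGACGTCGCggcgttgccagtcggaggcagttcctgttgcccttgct
Psmb9: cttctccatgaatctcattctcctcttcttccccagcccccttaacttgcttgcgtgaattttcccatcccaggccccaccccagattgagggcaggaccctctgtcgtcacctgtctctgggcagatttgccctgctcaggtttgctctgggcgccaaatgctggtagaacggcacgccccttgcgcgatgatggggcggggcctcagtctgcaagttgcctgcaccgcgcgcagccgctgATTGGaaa
Psmb6: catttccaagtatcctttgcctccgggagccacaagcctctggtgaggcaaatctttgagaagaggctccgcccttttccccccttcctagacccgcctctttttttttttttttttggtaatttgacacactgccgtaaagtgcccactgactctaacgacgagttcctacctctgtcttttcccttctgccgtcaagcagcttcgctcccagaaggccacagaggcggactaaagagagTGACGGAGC
Both constitutive genes held 1 antioxidant-type match, at position -47 from the start of Psmb5 and at -9 from that of Psmb6. Psmb8 held 1 gamma-activated match, at -97, and Psmb9 held 1 CCAAT match, at -8. Psmb8 and Psmb9 are neighbours on chromosome 17, read in opposite directions from starts 10865 bases apart. Between them lies Tap1, a subunit of the peptide transporter, whose start is 226 bases from that of Psmb9. The table held windows of 36 of the subunit genes, 39 windows in all. An antioxidant-type match was in 5 of the 39 (12.8%) and in 10.2% of all 32851 windows. For the gamma-activated site the shares were 1 of 39 (2.56%) and 7.02%, for the interferon regulatory factor pair 3 of 39 (7.69%) and 2.98%, and for CCAAT 14 of 39 (35.9%) and 33.9%. These matches describe letters only.

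The first comparison asks how the aTreg cells of DT-treated mice differ from the Foxp3-negative cells around them. Nearly every subunit gene read higher in aTreg than in Teff, most of them by a small amount. At each gene's brightest probe set (the one with the highest mean over the table), 40 of 43 subunit genes had a difference above 0. The median was 0.27 log2, against 0.028 over the brightest probe sets of all 20683 named genes, of which 56.1% were above 0. A gene is called here at an adjusted p under 0.05 from limma, adjusted over all probe sets of the table. By that rule 7 of 43 subunit genes rose in aTreg and none fell, where 5.08% of all named genes rose and 3.82% fell. Over probe sets, 9 of 91 members rose (9.89%) and none fell, against 3.86% and 2.9% of all probe sets. Members lie high on the array, and among probe sets above the median level 12% of 75 members rose against 6.94% of all. At an unadjusted p under 0.05, 20 of the 43 genes differed, against 20.9% of all named genes. Markers of other cells differed here too. Of 4 NK cell markers 3 were called lower in aTreg, with a summed level of 6.51 to 7.20 against 9.12 to 9.51 in Teff. The NK cell marker Ncr1 was not called and lay below the table's median on every array of both groups. Of 11 macrophage and dendritic cell markers 2 were called lower (8.46 to 10.41 in aTreg, 9.76 to 11.21 in Teff). The part of other cells in the result was not tested. Without the 3 arrays that correlated less, 16 member probe sets were called (15 higher, 1 lower). Calls over all 45101 probe sets grew as well, to 2904 higher and 3045 lower from 1740 and 1309.

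Psmb7, the constitutive subunit with trypsin-like activity, moved most of the subunits. Its log2 level was 9.11, 8.91, 9.17, 8.61 and 9.32 on the aTreg arrays, against 8.32, 8.36, 7.99, 8.10 and 7.99 on the Teff arrays. The groups did not overlap, and the difference was 0.87 ± 0.14 (SE, n = 5 each, 1.83-fold, limma adjusted p = 0.00264). Psmb9, the immunosubunit that replaces Psmb6, read 11.72, 11.70, 11.72, 11.82 and 11.78 in aTreg and 11.19, 11.27, 11.36, 11.10 and 11.40 in Teff. Every aTreg array was above every Teff array, at a difference of 0.49 ± 0.09 (limma adjusted p = 0.00525). Both calls held without any single array.

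The other 4 catalytic genes leaned the same way without passing the test. Psmb5, the constitutive chymotrypsin-like subunit, read 10.98, 10.95, 11.11, 10.81 and 11.10 in aTreg and 10.25, 10.36, 10.64, 10.34 and 10.93 in Teff. Only Teff array 5 reached into the aTreg range. The difference was 0.49 ± 0.13, at a limma adjusted p of 0.0533, so close to the threshold that 8 of 16 alternative fits called it (adjusted p 0.00438 to 0.14 over the 16, and 0.00595 without Teff array 5). Psmb8, which replaces Psmb5, differed by 0.27 ± 0.10 (limma adjusted p = 0.151, and 0.0419 without Teff array 5). Psmb6 differed by 0.29 ± 0.14 (0.311 with all arrays, 0.0383 without Teff array 5). Psmb10, which replaces Psmb7, read 10.80 to 11.19 in aTreg and 10.47 to 11.31 in Teff, groups that overlap, with a difference of 0.16 and a 95% interval of -0.17 to 0.48.

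**Figure D1:**
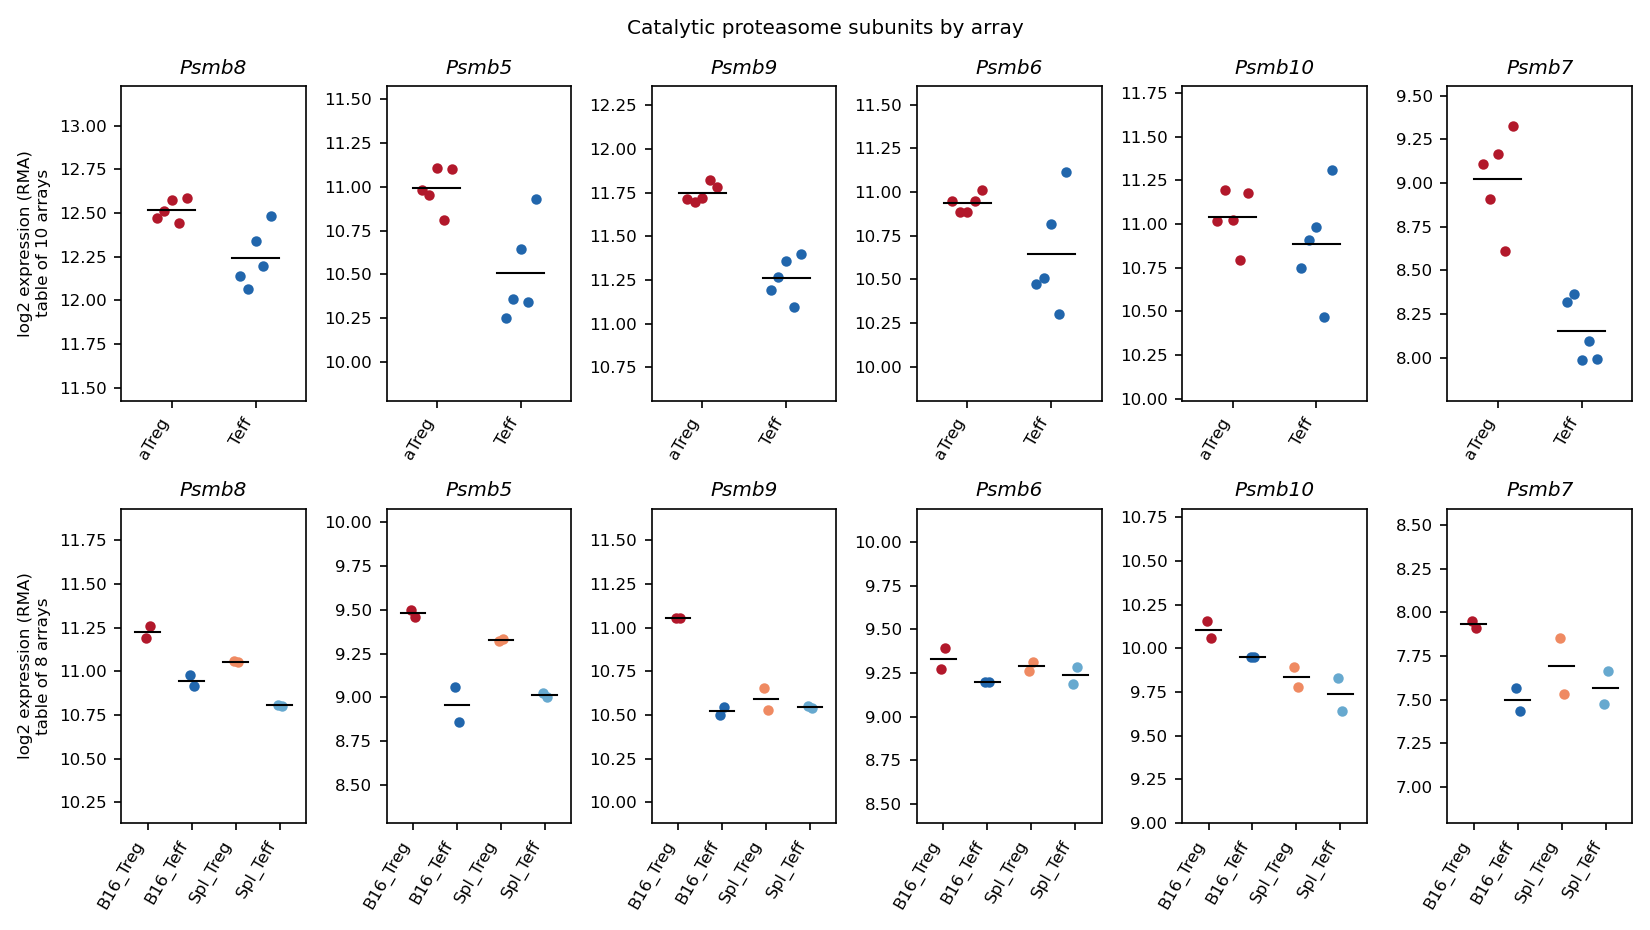
Log2 expression of the 6 catalytic subunits on each array (points) with the group mean (line); upper row, table of 10 arrays, lower row, table of 8 arrays. Psmb7 separates aTreg from Teff most widely (9.02 against 8.15 on average), and Psmb9 separates B16_Treg from the other 3 groups.

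Among the activators 2 of 4 rose in aTreg. Psme2, the PA28 beta chain, read 12.34, 12.28, 12.40, 12.68 and 12.44 in aTreg and 11.83, 11.9987, 11.98, 12.03 and 12.03 in Teff. The groups lay apart, by 0.46 ± 0.10 (limma adjusted p = 0.0149). Its partner Psme1 differed by 0.12 ± 0.11 and overlapped between the groups (adjusted p = 0.631). Psme3, which caps core particles in the nucleus, read 7.74, 7.85, 7.88, 7.88 and 7.56 in aTreg and 7.18, 7.19, 7.57, 6.73 and 7.38 in Teff. The lowest aTreg array and the highest Teff array read nearly the same. It rose by 0.57 ± 0.15 (limma adjusted p = 0.0374), a call lost when any of 6 single arrays was left out (Teff 1 or 2, aTreg 1, 2, 3 or 4, adjusted p 0.0699 to 0.1) or with a variance trend (0.0589). Psme4 differed by 0.38 ± 0.21 (adjusted p = 0.396).

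In the regulatory particle 2 of 17 genes rose. Psmd1, the largest scaffold of the base, read 9.49, 9.43, 9.57, 9.96 and 9.28 in aTreg and 9.17, 9.11, 9.07, 8.99 and 8.70 in Teff, without overlap (0.54 ± 0.14, limma adjusted p = 0.0368). Psmc1, an ATPase of the base, read 9.26, 9.10, 9.37, 9.50 and 9.04 in aTreg and 8.51, 8.83, 9.08, 8.60 and 8.71 in Teff, where array 3 reached into the aTreg range (0.51 ± 0.13, adjusted p = 0.0384). Both sit close to the threshold: the Psmd1 call was lost without any one of 9 arrays (all but aTreg 5, adjusted p up to 0.0906), and the Psmc1 call without any one of 8 (all but aTreg 5 and Teff 3, up to 0.106). Without the 3 arrays that correlated less, the Psmd1 difference was 0.33 (0.0662) and the Psmc1 difference 0.38 (0.107). A second probe set of Psmd1 differed by -0.16 and one of Psmc1 by 0.14, and neither was called. Lid genes had the widest lean with no call: all 8 were above 0, with a median of 0.39, and 5 had an unadjusted p under 0.05. The 7 alpha subunits were all above 0 at 0.13 to 0.39 with none called, and of the structural beta subunits Psmb2 rose (0.47 ± 0.11, limma adjusted p = 0.0205). Psmd5, a chaperone that joins base ATPases during assembly, was the one gene above the table's median level with a difference below 0 (-0.05).

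The second comparison sets Treg against Teff inside B16 tumours. More subunit genes were called here than in DT-treated mice, as were more of all genes, at a similar median difference. Of 42 subunit genes 19 rose in B16_Treg and none fell, where 13.7% of all 13120 named genes rose and 11.2% fell. The median difference was 0.28 log2, against 0.009 over all named genes, and 39 of 42 were above 0, against 51.5% of all named genes. Over probe sets, 24 of 75 members rose and 1 fell, against 12.2% and 11.1% of all 22690. Above the median level 40% of 60 members rose, against 18.5% of all probe sets there. The 1 fall was a dim probe set of the ATPase Psmc6 (5.31 and 5.15 in B16_Treg, 5.67 and 5.60 in B16_Teff), while the brightest probe set of that gene differed by 0.03. With only 2 arrays a group the count of called member probe sets depends on each array: it was 8 to 12 without any one of the 4, in fits that take the lone array of a group to vary like the others.

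In the constitutive core 9 of 14 genes rose, among them 5 of the 7 alpha subunits. Psma5 read 9.94 and 9.84 in B16_Treg and 9.41 and 9.30 in B16_Teff (0.53 ± 0.10, limma adjusted p = 0.00447). Psma4 read 10.93 and 10.96 against 10.47 and 10.43 (0.49 ± 0.08, adjusted p = 0.00261). At both genes the groups lay apart. Psmb5 read 9.50 and 9.46 in B16_Treg and 9.06 and 8.86 in B16_Teff (0.52 ± 0.09, limma adjusted p = 0.00431). Psmb7 read 7.95 and 7.91 against 7.57 and 7.43 (0.43 ± 0.12, adjusted p = 0.0381), a call lost without any single one of these 4 arrays (adjusted p up to 0.166). Psmb6 differed by 0.13 ± 0.09 (adjusted p = 0.348). Psmb2 (0.42), Psmb4 (0.38), Psma2 (0.41), Psma6 (0.33) and Psma1 (0.28) also rose. Psma3 differed by -0.02, with overlapping groups.

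Of the immunosubunits 2 of 3 rose. Psmb9 read 11.06 and 11.05 in B16_Treg and 10.50 and 10.55 in B16_Teff (0.53 ± 0.08, limma adjusted p = 0.00242), and the call held in every alternative tried. Psmb8 read 11.19 and 11.26 against 10.98 and 10.92 (0.28 ± 0.08, adjusted p = 0.0393), a call lost without any single array of the 2 groups (adjusted p up to 0.178) and in a fit of these 2 groups alone (0.0891). Psmb10 read 10.15 and 10.06 against 9.95 and 9.95 (0.16, adjusted p = 0.325).

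Outside the core, 5 of 17 regulatory particle genes, 2 of 3 chaperones and 1 of 4 activators rose. Psmd8, a lid subunit, read 10.03 and 10.06 in B16_Treg and 9.51 and 9.44 in B16_Teff (0.57 ± 0.10, limma adjusted p = 0.00315). Psmc1 read 8.82 and 8.81 against 8.24 and 8.27 (0.56 ± 0.08, adjusted p = 0.00134). Both held without any single array. Psmc3 (0.32), Psmd2 (0.31), Psmd14, the deubiquitinase of the lid (0.30), and the chaperones Psmd10 (0.37) and Psmd9 (0.32) rose as well. Psme4, the PA200 activator, read 9.47 and 9.47 in B16_Treg and 9.19 and 9.11 in B16_Teff (0.32 ± 0.08, adjusted p = 0.0262), and all 3 of its probe sets rose, by 0.32 to 0.59. The call at the brightest was lost without any single array of the 2 groups (adjusted p up to 0.121) and in a fit of these groups alone (0.0605). Psme2 differed by 0.28 (0.0632), Psme1 by 0.18 (0.213) and Psme3 by 0.10 (0.496).

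Markers of other cells also differed between these groups. In B16_Teff all 5 plasmacytoid dendritic cell markers measured were higher than in B16_Treg, their summed level being 9.37 and 9.62 in B16_Treg and 12.1 and 13.1 in B16_Teff, and 7 of 11 macrophage and dendritic cell markers were called lower in B16_Treg and 1 higher. Summed CD8 T cell markers were 7.15 and 7.27 in B16_Treg and 8.42 and 9.34 in B16_Teff, and NK cell markers 6.51 and 6.54 against 10.3 and 10.7. Spib was below the table's median on both B16_Treg arrays, as were Itgax, Adgre1, Cd14 and Flt3, and all 4 NK cell markers. On both B16_Teff arrays Csf1r, Adgre1, Cd14 and the NK cell markers Klrb1c and Ncr1 were below it. The part of these cells in the subunit differences was not tested. In bulk samples fewer cells of a type and less RNA per cell cannot be told apart.

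The same comparison in spleen and lymph nodes of Foxp3GFP mice gave much smaller differences. Of 42 subunit genes 36 were above 0, against 49.4% of all named genes, with a median of 0.088 log2 (all named genes, -0.003). Of the 42, 1 rose and none fell, against 7.21% and 6.1% of all named genes. Over probe sets the count was 1 of 75, against 6.27% higher and 6.11% lower of all. 10 of the 75 had an unadjusted p under 0.05, a smaller share than the 25.2% of all probe sets. The gene was Psma4, with 10.96 and 10.91 in Spl_Treg and 10.59 and 10.58 in Spl_Teff (0.35 ± 0.08, limma adjusted p = 0.0244), and the call was lost without any single array (adjusted p up to 0.128) and in a fit of these 2 groups alone (0.0558). Psmb5 read 9.32 and 9.33 in Spl_Treg and 9.03 and 9.0028 in Spl_Teff, which did not pass (0.31 ± 0.09, adjusted p = 0.0656). Psmb8 read 11.06 and 11.05 against 10.81 and 10.80 (0.25, adjusted p = 0.0887). Psmb9 differed by 0.05, with an interval of -0.15 to 0.24, and its groups overlapped. Here macrophage and dendritic cell markers summed to 10.9 and 11.4 in Spl_Treg and 11.8 and 12.2 in Spl_Teff. Of these 11 markers 4 were called lower in Spl_Treg and 2, Lyz2 and Csf1r, higher. NK cell markers summed to 6.66 and 6.94 against 9.41 and 9.60. All 4 lay below the table's median on both Spl_Treg arrays, and Klrb1c and Ncr1 also on both Spl_Teff arrays. Plasmacytoid dendritic cell markers summed to 9.35 and 9.73 against 10.29 and 10.37. The part of other cells in these values was not tested.

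**Figure D2:**
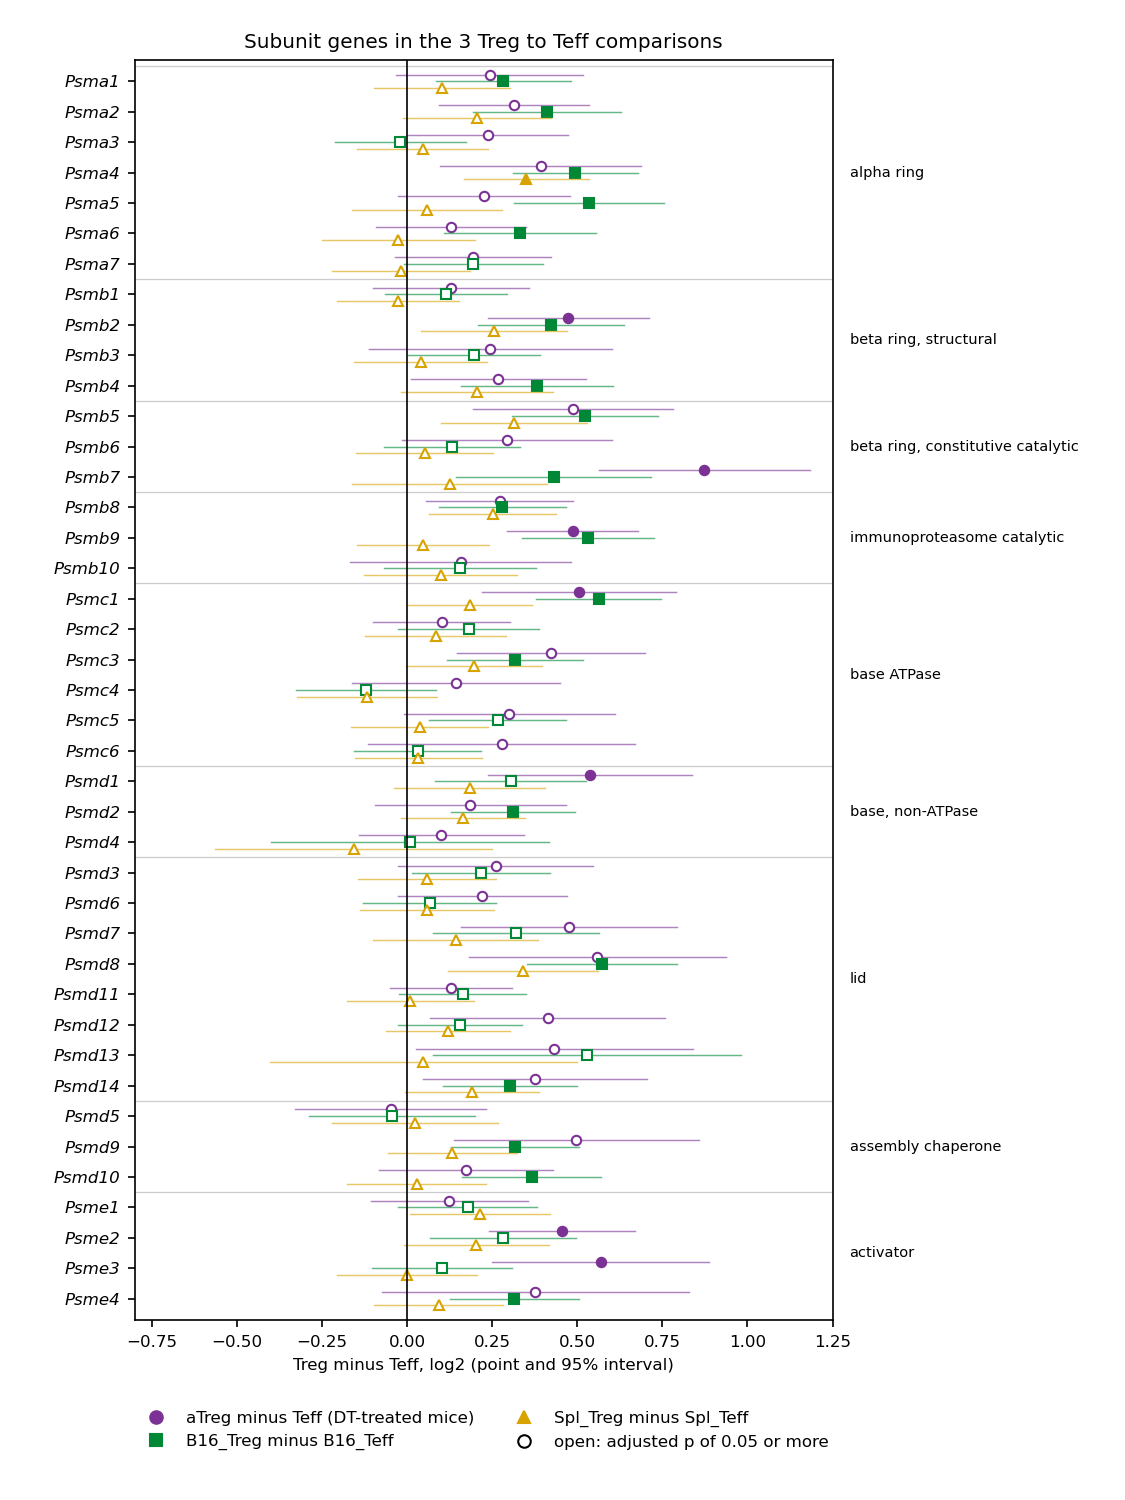
Difference between Treg and Teff (log2, with 95% interval) at the brightest probe set of 41 subunit genes, ordered by role, in DT-treated mice, B16 tumours and the spleen and lymph nodes of Foxp3GFP mice; filled symbols passed limma at an adjusted p under 0.05. Most points lie right of 0, with medians of 0.28 in DT-treated mice, 0.28 in tumours and 0.092 in spleen and lymph nodes.

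The 3 Treg to Teff comparisons share no array, so their values can be set side by side. At the brightest probe set of the 8-array table, 34 of 42 subunit genes (81.0%) were above 0 in all 3 and none was below 0 in all 3. Over all 13120 named genes these shares were 26.4% and 21.4%. 4 subunit genes rose in both DT-treated mice and tumours: Psmb2, Psmb7, Psmb9 and Psmc1. Whether the tumour difference exceeded that in spleen and lymph nodes was tested by the interaction of both. No member probe set of 75 passed, where 5.06% of all probe sets did in either direction. At an unadjusted p under 0.05 there were 10 of the 75, also a smaller share than the 18.2% of all probe sets. The interaction was above 0 at 37 of 42 genes, with a median of 0.16 log2, against 52.1% and 0.011 over all named genes. Psmb9 came closest, at 0.48 ± 0.12 (limma adjusted p = 0.0602). Psma5 followed at 0.48 ± 0.14 (0.0983) and Psmc1 at 0.38 ± 0.11 (0.114). For Psmb8 the interaction was 0.03, with a 95% interval of -0.24 to 0.29.

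The mean level of the 41 subunit genes per array gives the same picture in 1 value. It was 10.44, 10.37, 10.48, 10.43 and 10.40 on the aTreg arrays, against 10.03, 10.09, 10.27, 9.94 and 10.21 on the Teff arrays, with no overlap. On the B16_Treg arrays it was 9.76 and 9.73 against 9.49 and 9.45 on the B16_Teff arrays, and on the Spl_Treg arrays 9.66 and 9.64 against 9.54 on both Spl_Teff arrays. B16_Treg was thus highest and B16_Teff lowest in that table.

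**Figure D3:**
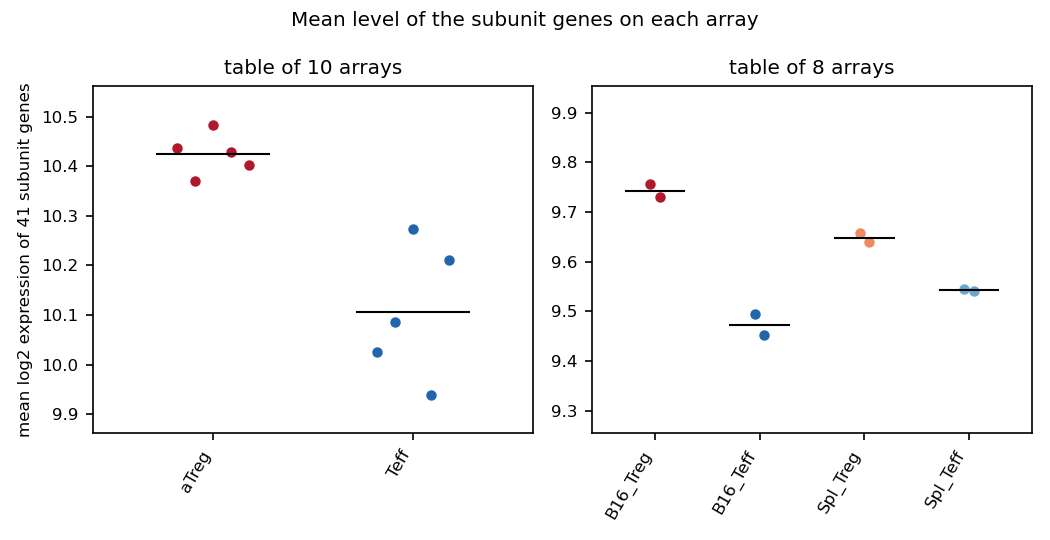
Mean log2 expression of 41 subunit genes on each array (points) with the group mean (line), in the table of 10 arrays and the table of 8 arrays. The aTreg arrays lie above all Teff arrays, and of the 8 arrays B16_Treg is highest (9.76 and 9.73) and B16_Teff lowest (9.49 and 9.45).

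The third question is how tumour samples of each cell type differed from those of spleen and lymph nodes. In Treg a few subunits moved, each its own way. Between B16_Treg and Spl_Treg 6 of 42 subunit genes rose and 1 fell, against 11% and 11.7% of all named genes, so the share of rises (14.3%) was near the background and that of falls (2.38%) below it. Over probe sets, 9 of 75 rose and 2 fell, against 10.6% and 11% of all. The median difference was 0.067 log2, against -0.027 over all named genes. Psmd13, a lid subunit, read 7.46 and 7.29 in B16_Treg and 6.19 and 6.90 in Spl_Treg (0.83 ± 0.20, limma adjusted p = 0.0178), and its second probe set rose by 0.68. The Spl_Treg arrays differed from each other there by nearly as much as the groups did, and the call was lost without either B16_Treg array (adjusted p up to 0.102). Without Spl_Treg array 1 the difference was 0.47, and without Spl_Treg array 2 it was 1.19.

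Psmb9 was the steadiest of the 6. It read 11.06 and 11.05 in B16_Treg and 10.65 and 10.53 in Spl_Treg (0.46 ± 0.08, limma adjusted p = 0.00545), called in every alternative tried. Psma5 read 9.94 and 9.84 in B16_Treg and 9.50 and 9.35 in Spl_Treg (0.47 ± 0.10, adjusted p = 0.00971), a call lost without B16_Treg array 1 or Spl_Treg array 2 (up to 0.0668). Psme4 read 9.47 and 9.47 against 9.06 and 9.08 (0.40 ± 0.08, adjusted p = 0.0103), and all 3 probe sets rose by 0.40 to 0.68, but the brightest lost its call without either B16_Treg array (up to 0.0536). Psmc1 rose by 0.36 ± 0.08 (0.0135, lost without either B16_Treg array or Spl_Treg array 2, up to 0.0707), and Psmd3 by 0.32 ± 0.09 (0.034, lost without any one of the 4 arrays, up to 0.145, and in a fit of the 2 groups alone, 0.0696). Psmd5, the assembly chaperone, fell, with 8.04 and 8.08 in B16_Treg and 8.58 and 8.31 in Spl_Treg (-0.39 ± 0.11, adjusted p = 0.0327). Its call was lost without either B16_Treg array or Spl_Treg array 1 (up to 0.158, where the difference was -0.25), and in a fit of the 2 groups alone (0.0727). The second fall was a dimmer probe set of Psmd7 (-0.49), whose brightest probe set differed by -0.08. Psmb8 (0.17) and Psmb10 (0.27) did not pass, nor did Psme1 (-0.25, adjusted p = 0.0808) and Psme3 (-0.27, 0.0656).

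In Teff most subunits read level or slightly lower in tumours, close to the shift of all genes. Between B16_Teff and Spl_Teff none of 42 subunit genes rose and 1 fell, where 7.35% of all named genes rose and 7.6% fell, and over probe sets none of 75 rose and 2 fell, against 6.92% and 7.01%. Of the 42 genes 33 were below 0, with a median of -0.067 log2. Of all 13120 named genes 7533 were below 0, with a median of -0.037. At an unadjusted p under 0.05 there were 14 of 75 member probe sets, a smaller share than the 28% of all. All 14 genes of the constitutive core were below 0, at -0.31 to -0.01. Psme3 fell, with 7.05 and 7.09 in B16_Teff and 7.45 and 7.43 in Spl_Teff (-0.37 ± 0.09, limma adjusted p = 0.0282), a call lost without any one of the 4 arrays (adjusted p up to 0.137). The other fall was the same dimmer probe set of Psmd7 (-0.56). Psmd13 had the largest difference above 0 (0.35 ± 0.20, adjusted p = 0.294, and 0.22 at its second probe set). Psmb10 (0.21), Psme4 (0.18), Psmd3 (0.16) and Psmb8 (0.14) were also above 0 without passing, and Psmb9 differed by -0.02.

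**Figure D4:**
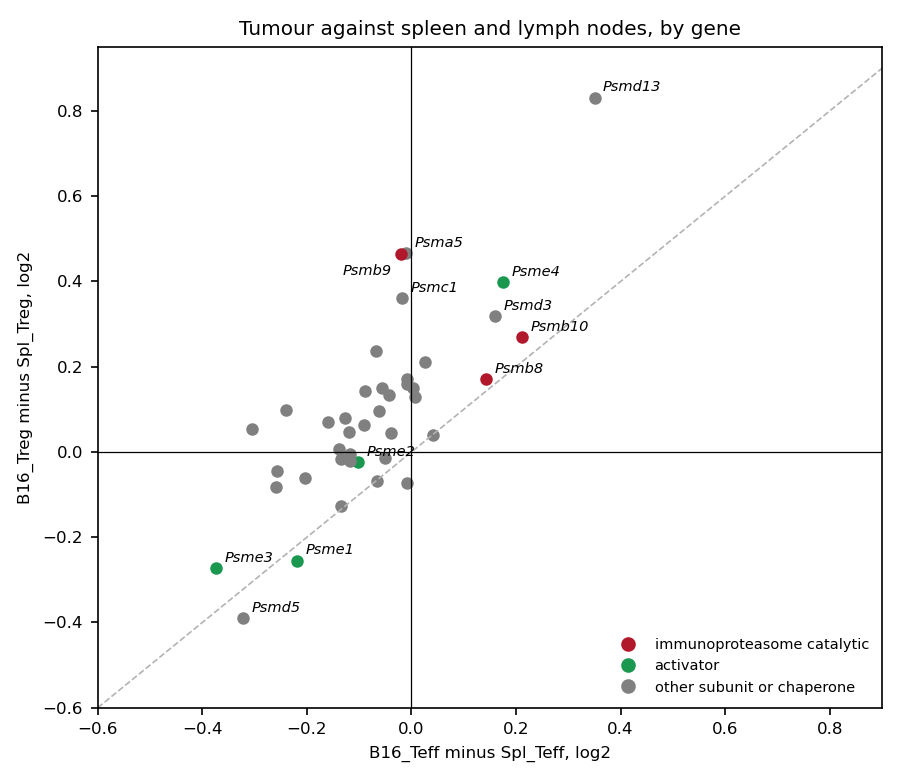
Difference between tumour and spleen with lymph nodes (log2) at the brightest probe set of 41 subunit genes, in Treg (vertical) against Teff (horizontal), with the line of equal change dashed. Psmb9, Psma5 and Psmc1 lie near 0 in Teff and at 0.36 to 0.47 in Treg, while Psme1, Psme3 and Psmd5 lie below 0 in both.

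The tumour arrays carried other cells in both groups. Of 6 melanoma markers measured 5 were called higher in B16_Treg than in Spl_Treg and 5 in B16_Teff than in Spl_Teff: their summed level was 10.7 and 11.2 in B16_Treg and 10.2 and 11.2 in B16_Teff, against 7.52 to 7.63 in the Spl groups, where Pmel, Tyr, Tyrp1, Dct and Mitf were all below the table's median. Of 6 stromal and endothelial markers 5 were also higher in each (8.65 and 9.85 in B16_Treg, 9.44 and 10.3 in B16_Teff, 8.10 to 8.49 in the Spl groups). In Teff all 5 plasmacytoid dendritic cell markers were called higher in tumours (summed level 12.1 and 13.1 in B16_Teff, 10.29 and 10.37 in Spl_Teff), as were both CD8 T cell markers (8.42 and 9.34 against 7.14 and 7.22). Macrophage and dendritic cell markers summed to 9.54 and 10.1 in B16_Treg against 10.9 and 11.4 in Spl_Treg, and to 12.6 and 13.5 in B16_Teff against 11.8 and 12.2 in Spl_Teff. Of these 11 markers 1 was called higher and 4 lower in tumour Treg. In tumour Teff 5 were called higher and 2, Lyz2 and Csf1r, lower. The part of these cells in the tumour differences was not tested.

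Whether the immunosubunits moved apart from the subunits they replace was tested on each array of DT-treated mice as the log2 level of one minus that of the other. A difference between 2 probe sets has no meaning by itself, but its shift between groups does. With 252 splits of 10 arrays the smallest two-sided exact p is 0.00794, and the 3 pairs were adjusted together. Psmb10 minus Psmb7 was 1.90, 2.28, 1.86, 2.19 and 1.85 in aTreg, against 2.43, 2.55, 2.9986, 2.37 and 3.32 in Teff. The groups lay apart, and the shift was -0.72 (exact permutation p = 0.00794, adjusted 0.0238). Psmb8 minus Psmb5 was 1.53 ± 0.07 in aTreg and 1.74 ± 0.14 in Teff (SD, n = 5 each), a shift of -0.22 (exact permutation p = 0.0238, adjusted 0.0317). Psmb9 minus Psmb6 went the other way, at 0.81 ± 0.05 in aTreg and 0.62 ± 0.21 in Teff, a shift of 0.19 (exact permutation p = 0.0317, adjusted 0.0317). So relative to Teff, aTreg held less Psmb10 and Psmb8 RNA, and more Psmb9 RNA, per unit of the counterpart. The last of these leaned on Teff array 5, at 0.28: without it the shift was 0.11. Each pair also lost its call without single aTreg arrays (exact permutation tests, 4 against 5 arrays): Psmb10 without aTreg 3 or 5 (adjusted p 0.0714), Psmb8 without aTreg 1, 2, 3 or 5 (up to 0.0714) and Psmb9 without any one of them (up to 0.127).

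In tumours the 3 pairs shifted the same ways, as values with no test (2 arrays a group). Psmb8 minus Psmb5 was 1.69 and 1.80 in B16_Treg and 1.92 and 2.06 in B16_Teff, a shift of -0.24. Psmb9 minus Psmb6 was 1.79 and 1.66 against 1.31 and 1.35 (0.40), and Psmb10 minus Psmb7 was 2.21 and 2.15 against 2.38 and 2.52 (-0.27). In each pair the 2 groups lay apart, which is common with 2 arrays a group. Spl_Treg and Spl_Teff lay apart at 22 of 42 subunit genes, though only 1 gene was called. The share over all probe sets was not counted, so this count is no result about the subunits. Between Spl_Treg and Spl_Teff the shifts were -0.06, -0.005 and -0.03 in that order. Between B16_Treg and Spl_Treg they were 0.02, 0.42 and 0.03, so there only the Psmb9 pair moved far, and between B16_Teff and Spl_Teff they were 0.20, 0.02 and 0.28.

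**Figure D5:**
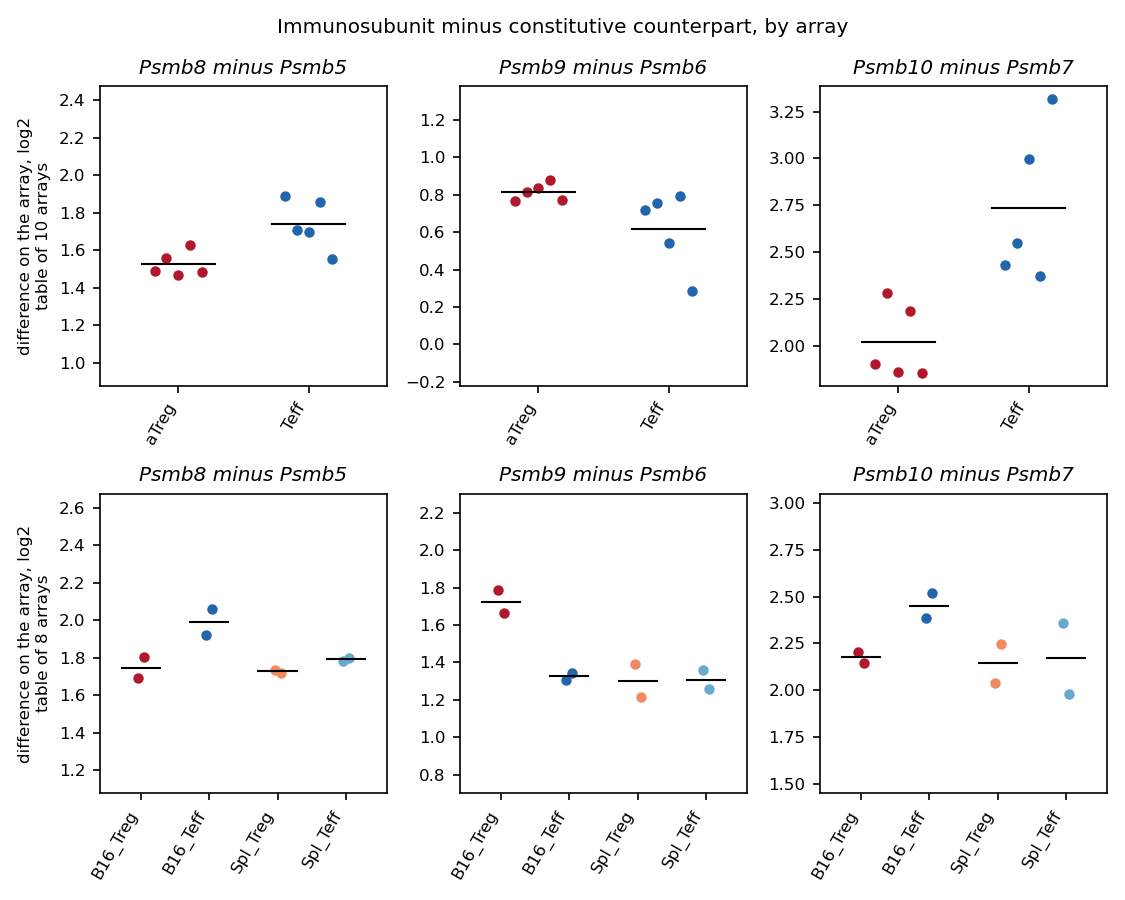
Log2 level of each immunosubunit minus that of the constitutive subunit it replaces, on each array (points) with the group mean (line); upper row, table of 10 arrays, lower row, table of 8 arrays. The Psmb9 pair is highest in B16_Treg (1.79 and 1.66), and the Psmb10 pair lies lower in aTreg than in Teff on all arrays.

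Genes that build or serve the proteasome without being members followed only in part. Pomp, the chaperone that matures the core, rose with the subunits in DT-treated mice (0.48 ± 0.11, limma adjusted p = 0.0211) and in tumours (10.42 and 10.44 in B16_Treg, 10.03 and 10.02 in B16_Teff). Nfe2l2, a transcription factor that binds the antioxidant-type element, went the opposite way in all 3 comparisons: it fell by 0.93 in aTreg, by 1.17 in B16_Treg and by 1.24 in Spl_Treg. Nfe2l1, the factor known to raise subunit transcription when proteasomes are inhibited, differed by -0.09, 0.006 and 0.09 and passed nowhere. Of the list of assembly and regulation genes 2 of 23 rose and 1 fell in aTreg (Vcp, an unfoldase that delivers substrates, by 0.42), 5 of 22 rose and 3 fell in B16_Treg against B16_Teff, and 1 rose and 2 fell in Spl_Treg. Between tumour and spleen 4 fell and none rose in Treg, and 2 fell and none rose in Teff. Of all named genes 5.08% rose and 3.82% fell in aTreg, 13.7% and 11.2% in B16_Treg, and 7.21% and 6.1% in Spl_Treg, each against its Teff. Between tumour and spleen 11% rose and 11.7% fell in Treg, and 7.35% and 7.6% in Teff. Psmg1, a chaperone of the alpha ring, fell in both, by 0.73 in B16_Treg and by 0.77 in B16_Teff, while the alpha genes had medians of 0.053 and -0.13.

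Partners of the immunoproteasome in class I presentation rose in small numbers, and none fell. The counts were 1 of 12 in aTreg, 2 of 11 in B16_Treg against B16_Teff and 2 of 11 in Spl_Treg against Spl_Teff. Between tumour and spleen they were 2 of 11 in Treg and 1 of 11 in Teff. Of all named genes 5.08%, 13.7%, 7.21%, 11% and 7.35% rose, in the same order. With 11 or 12 genes, counts this small cannot be set apart from those shares. Tapbpl, a peptide editor, rose in each of the 3 Treg to Teff comparisons by 0.51 to 0.57. Tap1, the neighbour of Psmb9, was below the table's median on every array of every group, so its probe set says nothing about the locus.

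Inputs to immunosubunit transcription (18 interferon and NF-kappaB genes, 17 measured) moved in both directions. The shares of all named genes that rose and fell in each comparison are those given with the assembly genes. In aTreg 4 rose, among them the receptor chain Ifngr1 (1.10), the interferon-induced GTPase Gbp2 (1.02) and Nfkb2 (0.72). In B16_Treg against B16_Teff 4 rose and 4 fell: Nfkb2 by 0.98 and Relb by 0.59 were higher, and Ifngr2 (-1.96) and Ifng itself (-1.16) lower. In Spl_Treg against Spl_Teff 4 rose and 2 fell, where Ifng fell by 2.30. Between tumour and spleen 6 rose and 4 fell in Treg (Ifngr1 1.57, Nfkb2 0.99) and 6 rose and none fell in Teff (Ifngr1 2.53, Ifit3 1.22). Of 18 cell cycle genes 15 rose in aTreg, 14 in B16_Treg and 10 in Spl_Treg against their Teff, and none fell. The subunit genes that rose there were 7 of 43, 19 of 42 and 1 of 42. Of the cell cycle genes 10 rose and 2 fell in B16_Treg against Spl_Treg, and 2 rose and 2 fell in B16_Teff against Spl_Teff. Their part in the subunit differences was not tested.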

How the data were processed

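The values are deposited log2 expression values that the authors made with RMA, per the submitters' processing notes (version not given in the sources used here), in 1 table of 10 arrays and 1 of 8, fitted separately. Probe sets were named from the deposited annotation table and updated through RefSeq of GRCm38.p6, used for names only. In the table of 10 arrays 31995 names were current symbols, 3311 synonyms and 2973 matched neither, and 6822 probe sets had no name. In the table of 8 arrays these were 19514, 1493, 413 and 1270. 21 value columns of the annotation table were not used. Differences between groups and their p-values came from limma 3.58.1 (lmFit, then eBayes; R 4.3.3), run on every probe set of a table with no block or filter, with Benjamini-Hochberg adjustment over all of them and a threshold of 0.05. Every adjusted p is limma's unless an exact permutation test is named. The scripts were tested on simulated data. The number of arrays limits the precision.

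Promoters are RefSeq's. Figures were drawn with matplotlib 3.10.9. Named by rule were the 6 catalytic subunits, the 4 activators, the 6 largest rises and falls per comparison among called genes, and up to 4 genes per list; other members were named after their values were seen. Members and lists were chosen with earlier results of these data known. Same-numbered arrays of DT-treated mice had deviations correlated at 0.04, 0.22, 0.41, 0.52 and 0.47. The labels do not say that the numbers are pairs, so the main fit used no block. Arrays were left out in turn, and other scalings, priors, filters and units of fit were tried.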

Additional observations from a re-analysis of the deposited data

Results flagged for a closer look

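1 value stood apart from its group among 26 combinations of 13 genes and the groups of 5 arrays in DT-treated mice. Psme2 read 11.83 on Teff array 1, while the other 4 Teff arrays read 11.98 to 12.03. The gap to the nearest array was 0.762 of the group's whole range. The test sets about 1 in 20 such groups apart by chance.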

How the results depend on the processing

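Directions of the called results held under every alternative tried, and the counts of called member probe sets did not. For aTreg minus Teff (9 called) the replicate block gave 19 (18 higher, 1 lower), leaving out aTreg 4 with Teff 4 and 5 gave 16, and leaving out single arrays 5 to 18 (5 without Teff 1, Teff 2 or aTreg 3, and 18 without Teff 5). Counts over all 45101 probe sets moved too. The main fit called 1740 higher and 1309 lower, and the replicate block 2634 and 2709. They were 2904 and 3045 without aTreg 4 and Teff 4 and 5, 2277 and 2041 without Teff 5, and 1225 and 881 without Teff 1. Whether same-numbered samples of DT-treated mice are pairs is not known. Arrays 3, 4 and 5 of aTreg correlated best with the Teff array of the same number (0.41, 0.52 and 0.47). Array 1 of aTreg correlated best with Teff array 4 (0.08), and array 2 with Teff array 5 (0.38). In the 8-array table the replicate block changed no count by over 1.5 times. Counts over all 22690 probe sets moved there too. For B16_Treg minus B16_Teff the main fit called 2770 higher and 2525 lower, and 2267 and 2037 with only the groups compared. A variance trend took Spl_Treg minus Spl_Teff from 1422 and 1387 to 1680 and 1668. It took B16_Teff minus Spl_Teff from 1570 and 1590 to 1913 and 2105, and the interaction from 549 and 600 to 818 and 847. The counts that follow are of member probe sets. For Spl_Treg minus Spl_Teff (1 called) the counts were 2 with 1 probe set per gene, 0 with only the groups compared, 5 with a variance trend, 4 without dim probe sets and 0 to 1 without single arrays. For B16_Treg minus B16_Teff (25 called) they were 14 with only the groups compared and 8 to 12 without single arrays. For B16_Treg minus Spl_Treg (11 called) single arrays gave 4 to 9. For B16_Teff minus Spl_Teff (2 called) they were 1 with 1 probe set per gene, 1 with only the groups compared, 8 with a variance trend, 6 without dim probe sets and 0 to 1 without single arrays. For the interaction (0 called) they were 1 with centred arrays, 2 with a variance trend, 3 without dim probe sets and 0 to 1 without single arrays. With the mean of all probe sets the Psmb8 minus Psmb5 shift was -0.20 (adjusted exact p = 0.0952). Without single arrays it ran from -0.26 to -0.18, the Psmb9 pair from 0.11 to 0.24 and the Psmb10 pair from -0.81 to -0.57. Of the named genes that were called, 223 values under an alternative kept the call and 69 lost it. Of those not called, 25 gained one and 391 did not. The replicate block ended the call of Psmb8 between B16_Treg and B16_Teff and of Psmd3 between B16_Treg and Spl_Treg, and gave one to Psmb5 in aTreg. The causes were not tested.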

Other observations

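Psmc3ip, which the naming rule caught although it is no proteasome subunit, rose in aTreg at both of its probe sets, by 0.92 each. Its brighter one read 6.85, 6.83, 6.89, 6.54 and 6.69 in aTreg and 5.52, 5.85, 6.10, 5.54 and 6.21 in Teff (0.92 ± 0.15, limma adjusted p = 0.00257), with no overlap. In the other table it lay below the median level and differed by 0.002 between B16_Treg and B16_Teff and by 0.14 between Spl_Treg and Spl_Teff. It is known in mouse and yeast as a helper of meiotic recombinases.

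The probe sets of a gene did not always move alike. In DT-treated mice the 4 probe sets of Psmd9 differed by -0.53 to 0.50 and the 2 of Psma3 by -0.51 to 0.24, with none called. In tumours the 2 probe sets of Psmc1 differed by 0.02 and 0.56, of which the brighter was called. No gene had probe sets called in opposite directions in any comparison.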
